A study of Bos taurus with 24 samples.

Results

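The bovine miR-22 hairpin is represented by 2 rows of the deposited miRNA counts, bta-miR-22-3p and bta-miR-22-5p, and the hairpin of bta-miR-3600, annotated at the same place in the genome, by a further row. The 3 rows were taken by their exact names from the 796 rows listed for each breed, and all 3 had counts in every library. Small RNA was sequenced from mammary gland (MG) biopsies of multiparous midlactation cows of 2 breeds, 5 Holstein (HOLS) and 6 Montbéliarde (MONT). Each cow gave a biopsy on day 0, when feed was offered freely (CONT), and another on day 6 of a feed restriction (REST), so the 22 libraries form 4 groups of 5, 5, 6 and 6. The labels set the restricted allowance at 60% of the net energy of lactation calculated beforehand, while the study's text gives a different figure. Biopsy sites alternated between the rear sides of the udder. The study's text and labels do not give the side of each biopsy, so whether side was balanced over the periods is not known. An effect of side was not tested. The labels name no line, transgene or drug.

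A miRNA hairpin is cut into a duplex whose arms are named 5p and 3p after their place in the hairpin. The arm that is kept in an Argonaute protein guides it to messenger RNAs that pair with the seed, and the other arm is usually degraded, so that the levels of both arms in a tissue can lie far apart. miR-22-3p is the arm usually found in excess and is known to act on the transcripts of ESR1 (oestrogen receptor alpha) and of TET enzymes, which oxidise methylated cytosine. In mammary epithelium, the oestrogen receptor bears on growth of the gland.

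Total miRNA counts per library ran from 6087865 to 18913916, with a median for each group between 9107961 (MONT CONT) and 14376578 (HOLS REST). All 6 epithelial marker miRNAs (the miR-200 family and miR-205) were detected in every group. Their summed normalized counts lay between 402912 and 514772 for HOLS CONT, 267405 and 641434 for HOLS REST, 194561 and 527079 for MONT CONT, and 139185 and 372027 for MONT REST. The 5 smooth muscle and stromal markers, led by miR-143, summed to more than the epithelial ones in all 4 groups, so the biopsies held several cell types.

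The counts of miR-3600 and miR-22-3p were almost the same number in each of the 22 libraries. Among HOLS cows in CONT, miR-22-3p had 185442 counts in cow 1155, 133241 in cow 1165, 129907 in cow 2182, 106625 in cow 8200 and 139492 in cow 9195. The corresponding counts of miR-3600 were 185474, 133254, 129930, 106642 and 139514. miR-3600 was the higher row in 22 of 22 libraries, by 8 to 32 counts, or 0.00600% to 0.0259% of the counts of miR-22-3p.

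The difference between the rows averaged 21.4 ± 7.16 counts for HOLS CONT (SD, n = 5), 22 ± 7.48 for HOLS REST (n = 5), 16.3 ± 2.50 for MONT CONT (n = 6) and 13.8 ± 5.31 for MONT REST (n = 6). The log2 ratio of miR-3600 to miR-22-3p had an SD of 6.86e-05 over the 22 libraries. It differed between no groups past the threshold, with two-sided exact permutation p from 0.121 to 0.659 over 5 comparisons. Without MONT cow 9615, this ratio was lower in REST than in CONT in MONT, by -0.000105 on the log2 scale. The unadjusted p was 0.00794 by an unpaired exact permutation test, the smallest that 5 against 5 libraries allow. That test ignores the pairing of libraries by cow, and a paired exact permutation test over 5 cows cannot give a p below 0.0625. Without cow 9615 the ratio in REST was also higher in HOLS than in MONT (unadjusted exact permutation p = 0.0476), and its change was higher in HOLS than in MONT (unadjusted exact permutation p = 0.00794). These differences amount to a few counts in libraries of at least 54081 counts of miR-22-3p.

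**Figure D1:**
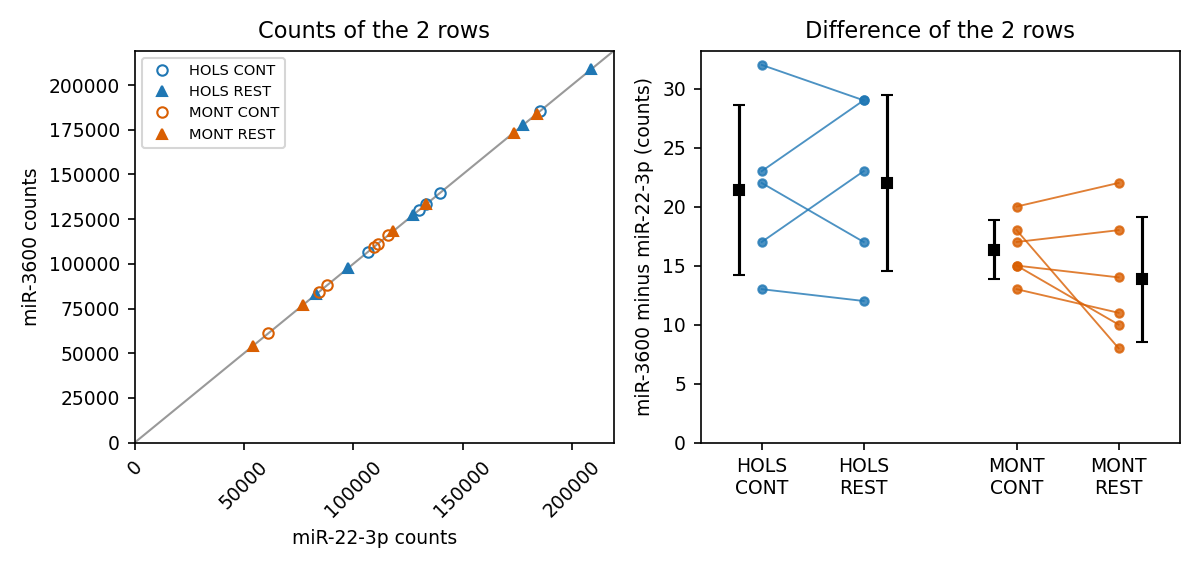
Left, counts of miR-3600 against counts of miR-22-3p, 1 symbol per library, with a grey line where both are equal. Right, the difference of the 2 rows in counts, with lines joining the libraries of a cow and black squares with bars for the mean ± SD of a group. All 22 libraries lie on the line of equality at this scale, and the difference lies between 8 and 32 counts.

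In RefSeq's table of bovine genes (ARS-UCD2.0), MIR3600, a gene of 81 bases, lies inside MIR22, a gene of 85 bases, on chromosome 19. Both lie within the span of the protein-coding gene TLCD2, between PRPF8 and WDR81. The build used here for the names is not that of the deposited counts, and the table gives no strand. Of the 1032 miRNA genes in that table, 35 pairs overlap each other.

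Among the 369 rows with a mean of at least 10 counts per library, 9 pairs of rows stayed within 1% of each other in all 22 libraries. The pair of miR-22-3p and miR-3600 was the most abundant of them, with means of 122648 and 122667 counts, followed by let-7b and miR-3596 with 52578 counts each. The genes of 8 of the 9 pairs overlap in RefSeq, and in the remaining pair both rows are predicted miRNAs with no gene there. In 6 of the 9 pairs the counts were identical in every library. The difference of up to 32 counts between miR-3600 and miR-22-3p was larger than in the other 8 pairs. As a share of the counts it was at most 0.0259%, below the largest of miR-148c and miR-152 (0.0779%) and of miR-6529a and miR-6529b (0.725%). How reads that fit both hairpins were counted is not given in the sources used here, and the values of miR-22-3p and miR-3600 are therefore treated as 1 measurement. Both rows together took 1.16% to 3.50% of the counts of a library.

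miR-22-3p was one of the abundant miRNAs of the MG, and miR-22-5p was scarce. miR-22-3p took 0.581% to 1.75% of the counts of a library and ranked between 15 and 20 among the rows in every library. miR-22-5p took 0.000702% to 0.00239% and ranked between 182 and 218. By the mean level over all libraries, miR-3600, miR-22-3p and miR-22-5p ranked 16, 17 and 203 of 796. Counting error alone came to at most 0.430% of the value for miR-22-3p and to 6.30% to 13.1% for miR-22-5p, whose counts ran from 58 to 252. This error covers counting only, since reads copied by PCR are not independent molecules.

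Feed restriction in HOLS cows was the first comparison. The normalized counts of miR-22-3p in CONT were 135189 in cow 1155, 128704 in cow 1165, 184231 in cow 2182, 120383 in cow 8200 and 92270.7 in cow 9195. In REST the same cows had 89682.2, 115670, 158959, 111452 and 74743.9. Each of the 5 cows was thus lower in REST than in CONT, cow 2182 was the highest and cow 9195 the lowest in both periods, and the ranges of the periods overlapped. CONT averaged 132156 ± 33400.6 and REST 110101 ± 31964.7 (SD, n = 5 each).

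The change within the cows had 1 direction, and none of the tests passed the threshold. The change per cow averaged -0.27 ± 0.19 on the log2 scale (SD, n = 5) and ran from -0.59 in cow 1155 to -0.11 in cow 8200, with a two-sided exact paired permutation p = 0.0625, the smallest that 5 cows allow, so that this test could not pass. The fitted log2 fold change was -0.26 (SE 0.21, unadjusted p = 0.229, adjusted p = 0.490) by the quasi-likelihood test of edgeR, adjusted after Benjamini-Hochberg. A block for the cow in that test gave -0.28 (SE 0.098), with an unadjusted p = 0.0140 and an adjusted p = 0.0615. Of the 3 rows, 0 passed the threshold in HOLS, where 2.41% of the 374 miRNAs tested did (9 called, 87 with an unadjusted p under 0.05), and 0 passed with the cow as a block, where 16.3% did (61 called). DESeq2 without a block called 0 of the 3 rows and 7.22% of the same 374.

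For miR-22-5p in HOLS, the normalized counts in CONT were 151.634 in cow 1155, 126.539 in cow 1165, 178.69 in cow 2182, 144.516 in cow 8200 and 129.649 in cow 9195. In REST they were 103.729, 92.5162, 140.913, 144.483 and 138.475. Cows 1155, 1165 and 2182 were lower in REST, cow 8200 had almost the same level in both periods, and cow 9195 was higher in REST. The ranges of the periods overlapped, CONT averaging 146.206 ± 20.9 and REST 124.023 ± 24.1 (SD, n = 5 each). The log2 fold change was -0.23 (SE 0.17, adjusted p = 0.457) by edgeR's quasi-likelihood test, and -0.25 with the cow as a block (adjusted p = 0.214). In cow 9195 the arms differed in direction, with a change of -0.30 for miR-22-3p and 0.09 for miR-22-5p on the log2 scale.

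Markers of several other cell types moved between the same HOLS libraries. The summed smooth muscle and stromal markers were higher in REST in 5 of 5 cows, by 0.46 ± 0.25 on the log2 scale (SD, n = 5), and their sum lay between 1663940 and 2540930 for CONT and between 2478670 and 3174030 for REST. Both endothelial markers together (miR-126-3p and miR-126-5p) were higher in 5 of 5 cows by 0.32 ± 0.22, the 5 leukocyte markers in 4 of 5 cows by 0.33 ± 0.26, and the 3 red blood cell markers in 4 of 5 cows by 0.40 ± 0.35. The skeletal muscle markers miR-1 and miR-133a changed by -0.21 ± 0.64 together, with 3 of 5 cows higher in REST. The sum of the 6 epithelial markers changed by -0.04 ± 0.36 and was higher in REST in 3 of 5 cows, but 67.9% to 79.4% of the mean sum of a group was miR-141. Taken singly, miR-200b changed by -0.54 ± 0.13, miR-200c by -0.42 ± 0.33 and miR-429 by -0.27 ± 0.16, each lower in REST in 5 of 5 cows as miR-22-3p was. The other markers gave -0.13 ± 0.22 for miR-200a (lower in 3 of 5), 0.01 ± 0.42 for miR-141 (lower in 2 of 5) and 0.11 ± 0.25 for miR-205 (lower in 1 of 5). None of these markers was at 0 in a group, and their part in the levels of miR-22 was not tested. In biopsies of mixed tissue, fewer cells of a type and less miRNA per cell cannot be told apart.

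**Figure D2:**
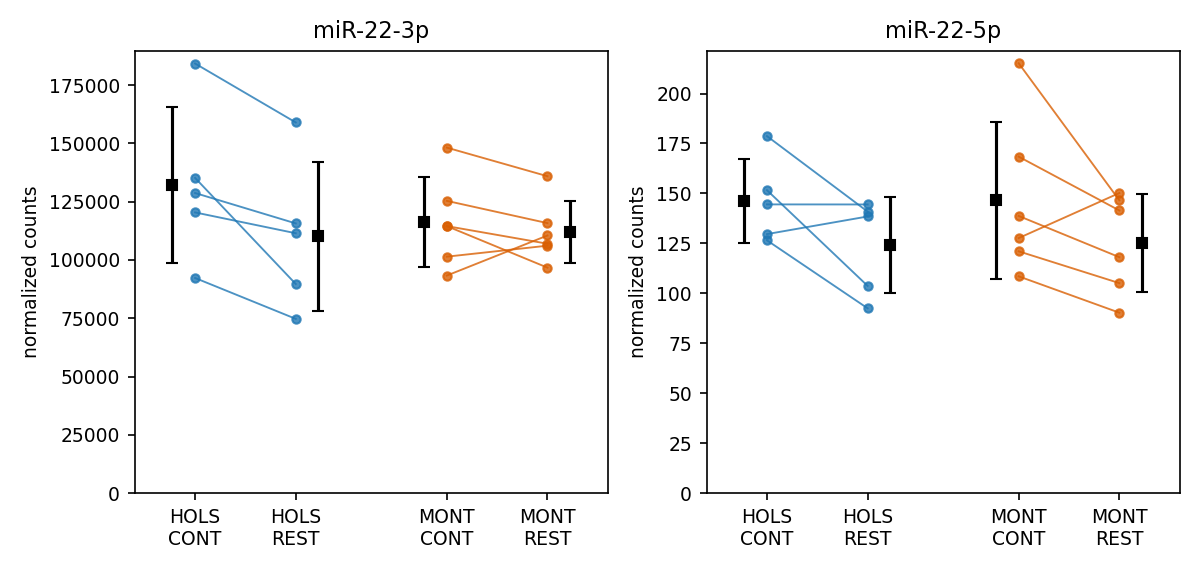
Normalized counts of miR-22-3p (left) and of miR-22-5p (right) in the 4 groups, on axes that start at 0. Each point is a library, lines join both libraries of a cow, and black squares with bars give the mean ± SD (n = 5 for HOLS, n = 6 for MONT). miR-22-3p was lower in REST in 5 of 5 HOLS cows and 4 of 6 MONT cows, and the groups overlap in both panels.

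In MONT cows the periods lay close together for miR-22-3p. Its normalized counts had a lowest value of 93300.5, a median of 114521 and a highest value of 148177 in CONT, against 96704.2, 108725 and 135907 in REST. CONT averaged 116211 ± 19260.5 and REST 111996 ± 13282.4 (SD, n = 6 each), and 4 of 6 cows were lower in REST. The change per cow averaged -0.05 ± 0.17 on the log2 scale and ran from -0.24 in cow 9615 to 0.24 in cow 2614, with a two-sided exact paired permutation p = 0.531.

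miR-22-5p in MONT had 108.522, 133.203 and 215.169 normalized counts in CONT (lowest, median and highest) and 90.3189, 129.795 and 150.204 in REST. It was lower in REST in 5 of 6 cows, the exception being cow 9615, and the change averaged -0.21 ± 0.25 on the log2 scale (SD, n = 6, exact paired permutation p = 0.125). The fitted log2 fold changes were -0.07 (SE 0.13, adjusted p = 0.798) for miR-22-3p and -0.25 (SE 0.23, adjusted p = 0.556) for miR-22-5p by edgeR's quasi-likelihood test. With the cow as a block, that test gave -0.06 (SE 0.10, adjusted p = 0.721) and -0.23 (SE 0.17, adjusted p = 0.422). The threshold was passed by 0 of the 3 rows and by 0% of the 349 miRNAs tested in MONT, where 47 had an unadjusted p under 0.05 with edgeR, and DESeq2 likewise called 0. Without cow 9615 edgeR called 46 miRNAs in MONT, and 0 of the 3 rows were among them. In MONT the summed epithelial markers were lower in REST in 5 of 6 cows, by -0.29 ± 0.68 on the log2 scale (SD, n = 6). Taken singly, miR-200a, miR-200b, miR-200c and miR-429 were each lower in 5 of 6 and miR-141 in 4 of 6. In contrast, miR-205 was higher in 6 of 6 by 0.33 ± 0.29. The smooth muscle and stromal markers were higher in 4 of 6 by 0.23 ± 0.62, and the leukocyte markers in 5 of 6 by 0.24 ± 0.51. Endothelial markers changed by -0.06 ± 0.31, with 4 of 6 higher. Red blood cell markers changed by -0.29 ± 0.79 and skeletal muscle markers by -0.02 ± 0.94, each higher in 3 of 6.

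The interaction of breed and period asked whether restriction acted differently in the breeds. The difference of the changes (HOLS minus MONT) was -0.25 for miR-22-3p (SE 0.25, adjusted p = 0.991) and -0.05 for miR-22-5p (SE 0.27, adjusted p = 0.991) by edgeR's quasi-likelihood test. With the cow as a block, that test gave -0.27 (SE 0.145, adjusted p = 0.985) and -0.08 (SE 0.20, adjusted p = 0.994). Of the 3 rows, 0 passed the threshold, and 0% of the 388 miRNAs tested did, with 3 miRNAs at an unadjusted p under 0.05 in edgeR and 0 called by DESeq2. The change of miR-22-3p was thus not shown to differ between the breeds, and the difference was -0.06 without cow 1155.

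Levels of the breeds were then compared within each period, in a fit of all 22 libraries without a term for the cow. The study reports more short reads and adapters, and a smaller share of clean reads, for the MONT libraries. Breed and library quality therefore cannot be told apart. In CONT, HOLS exceeded MONT by 0.21 on the log2 scale for miR-22-3p (SE 0.17, adjusted p = 0.528) and by 0.01 for miR-22-5p (SE 0.19, adjusted p = 0.982) by edgeR's quasi-likelihood test, with 0 of the 3 rows past the threshold against 7.47% of all 388 miRNAs tested. The difference of miR-22-3p was 0.04 without cow 2182. DESeq2 called 0 of the 3 rows in either period, against 8.25% of all tested in CONT and 22.2% in REST. In REST the log2 differences were -0.04 for both arms (SE 0.17 and 0.19, adjusted p = 0.880 and 0.901), with 0 of the 3 rows called against 13.7% of all tested. By mean normalized count the groups followed the order HOLS CONT, MONT CONT, MONT REST and HOLS REST for miR-22-3p, and MONT CONT, HOLS CONT, MONT REST and HOLS REST for miR-22-5p. The gap between each pair of neighbours in either order was smaller than the SD within the groups. Fitted values of miR-3600 equalled those of miR-22-3p to 2 decimals in all 5 comparisons.

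**Figure D3:**
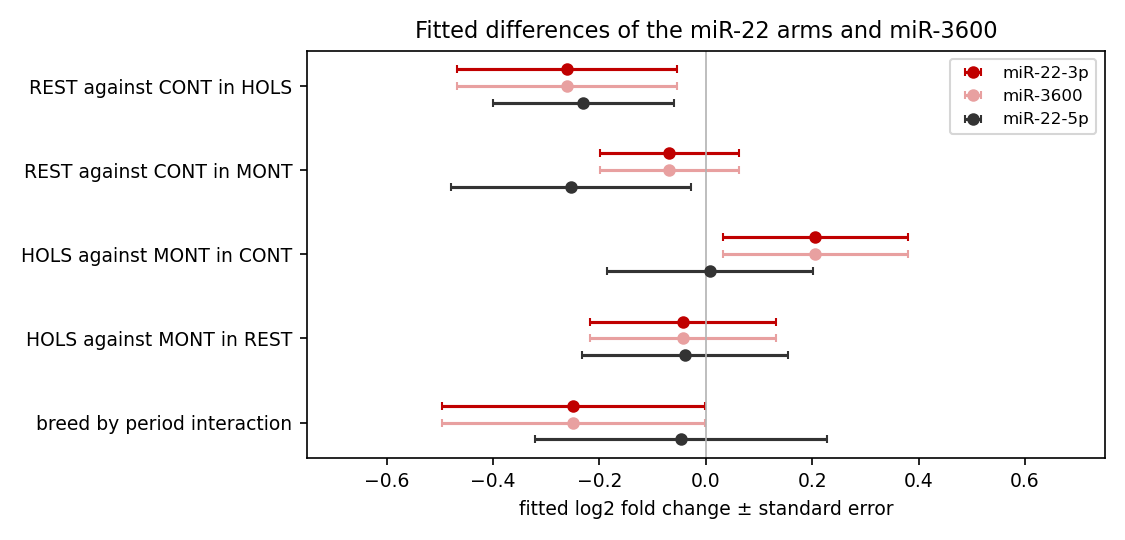
Log2 fold changes fitted by edgeR for miR-22-3p, miR-3600 and miR-22-5p in the 5 comparisons, with bars of 1 standard error. The values of miR-3600 coincide with those of miR-22-3p, none passed the threshold, and the lowest estimates are near -0.26 in HOLS and, for miR-22-5p, -0.25 in MONT.

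The ratio of the arms was also followed, since a ratio within a library needs no scaling between libraries. In CONT the counts of miR-22-3p were 892 times those of miR-22-5p in cow 1155, 1017 times in cow 1165, 1031 times in cow 2182, 833 times in cow 8200 and 712 times in cow 9195. In REST the ratios of these HOLS cows were 865, 1250, 1128, 771 and 540. Cow 9195 had the lowest ratio in both periods, and cows 1165 and 2182 had the highest. In MONT the ratio had a lowest value of 434, a median of 888 and a highest value of 1055 in CONT, and 644, 930 and 1184 in REST.

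The 3p arm exceeded the 5p arm by a median of 894 times over the 22 libraries, and no difference in the ratio was larger than the spread between cows. The log2 ratio averaged 9.80 ± 0.22 for HOLS CONT, 9.77 ± 0.48 for HOLS REST (SD, n = 5 each), 9.65 ± 0.48 for MONT CONT and 9.82 ± 0.33 for MONT REST (n = 6 each). Two-sided exact permutation tests gave p = 0.921 for REST against CONT in HOLS, 0.526 in MONT, 0.710 between the breeds in CONT, 0.835 in REST and 0.390 for the difference of the changes, with adjusted p from 0.779 to 0.921 over the 10 tests of both ratios. Per cow, the ratio changed by -0.03 ± 0.26 in HOLS (2 of 5 cows higher in REST, exact paired permutation p = 0.8125) and by 0.17 ± 0.41 in MONT (5 of 6 cows higher in REST, p = 0.40625). Without cow 2614 the change in MONT was 0.04. The only MONT cow with a lower ratio in REST was cow 9615, where miR-22-3p was lower and miR-22-5p higher than in CONT.

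Set beside other hairpins with both arms counted, miR-22 stood near the end of the range of arm ratios. The set was 24 precursors with rows named 3p and 5p, both arms at a mean of at least 10 counts. Hairpins with a scarcer arm, or with a row lacking these endings, were left out. Of the 24, 10 had more 3p and 14 more 5p counts, and the median size of the log2 ratio was 2.31. With a mean of 9.75, miR-22 had the highest log2 ratio of the 10, ahead of miR-27a at 8.56, and of all 24 only let-7a lay further from equality, at -10.2 in the other direction. The SD of the log2 ratio over the 22 libraries was 0.37 for miR-22 against a median of 0.43, the seventh lowest of the 24. Between the periods the ratio of miR-22 moved by -0.03 in HOLS, where the 24 ranged from -0.82 to 0.73, and by 0.17 in MONT, where they ranged from -0.86 to 1.12.

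**Figure D4:**
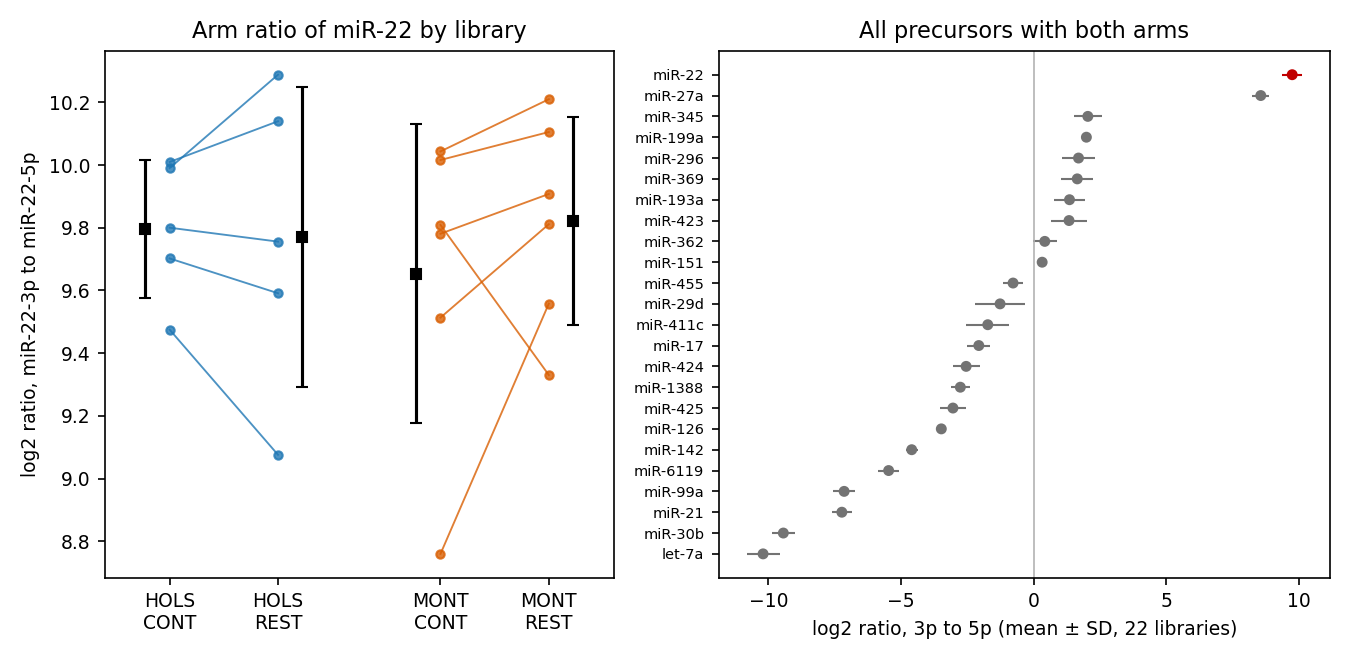
Left, log2 ratio of miR-22-3p to miR-22-5p by library, with lines joining the libraries of a cow and black squares with bars for the mean ± SD of a group. Right, the mean log2 ratio of 3p to 5p counts ± SD over the 22 libraries for the 24 precursors with both arms at a mean of at least 10 counts, with miR-22 in red at 9.75. The groups overlap on the left, and miR-22 stands at the 3p end of the range on the right.

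The levels of the arms were only loosely related across libraries. After centring on the mean of the breed, the log2 normalized counts of miR-22-3p and miR-22-5p had a Pearson r of 0.22 over the 22 libraries, 0.48 within the HOLS libraries and -0.10 within the MONT libraries, given as a description since libraries of a cow are not independent. Across the 11 cows, the change of miR-22-5p and that of miR-22-3p had r = -0.12 (permutation p = 0.720) and rho = -0.18 (permutation p = 0.599), and r was -0.44 without the 2 cows farthest from the median. In the 6 MONT cows r was -0.84 (exact permutation p = 0.0417, adjusted p = 0.167 over 4 relations) and rho was -0.71 (exact permutation p = 0.136), with r = -0.99 in the 4 cows left without those farthest from the median. The mean of both periods per cow had r = 0.18 (permutation p = 0.610) and rho = -0.01 (permutation p = 0.991) over the 11 cows, and r was -0.07 without the 2 farthest. In the 6 MONT cows alone the means gave r = -0.01 (exact permutation p = 0.994) and rho = -0.31 (exact permutation p = 0.564), and r was -0.93 without the 2 farthest. None of the 4 relations passed after adjustment, and a relation over the 5 HOLS cows alone was not computed.

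Over the 385 other miRNAs kept by the filter, the pattern most like that of miR-22-3p was that of miR-423-3p, with r = 0.82 over the 22 libraries, 0.98 within HOLS and 0.67 within MONT. It was followed by miR-11973 (r = 0.71), miR-2419-5p (0.69), miR-128 (0.67) and miR-1260b (0.66). Of these, miR-11973 and miR-1260b averaged only 7.67 and 12.1 normalized counts, so that counting error weighs on their r. The miRNAs most like miR-22-5p were miR-324 (r = 0.71), miR-326 (0.70), miR-423-5p (0.67), miR-877 (0.66, at a mean of only 14.9 normalized counts) and miR-365-3p (0.65). The lists share no miRNA, though one holds the 3p arm and the other the 5p arm of miR-423. The median r with all 385 was -0.02 for either arm and the 95th percentile 0.50 for miR-22-3p and 0.49 for miR-22-5p, and all these values share libraries, depth and normalization.

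Other miRNAs known to act on the ESR1 transcript were counted in the same fits. Of 9 miRNAs known to act on ESR1, 8 were rows of the deposited counts and were tested, and miR-206 was not used here. Of these, 0 of 8 passed edgeR's test between the periods in HOLS, against 2.41% of all tested. In MONT between the periods and in the interaction 0 of 8 passed, as did 0% of all tested. Median log2 fold changes of the 8 were -0.25 in HOLS and -0.05 in MONT, against 0.02 and -0.01 over all miRNAs tested. Without a block DESeq2 called 2 of 8 in HOLS, miR-222 and miR-18b, against 7.22% of all tested. It called 0 of 8 in MONT and in the interaction, where 0% of all tested was called. A block for the cow in edgeR brought 3 of 8 past the threshold in HOLS, against 16.3% of all tested, where miR-222 was higher in REST (log2 fold change 0.48, adjusted p = 0.0216), while miR-18a (-0.47, adjusted p = 0.0431) and miR-18b (-1.19, adjusted p = 0.0141) were lower.

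Between the breeds, miR-19a and miR-19b of the same list were higher in HOLS in CONT, by 0.76 and 0.61 on the log2 scale (SE 0.22 and 0.15, adjusted p = 0.0404 and 0.0400 by edgeR). In REST miR-221 and miR-222 were lower in HOLS than in MONT, by -0.85 and -0.75 (SE 0.23 for both, adjusted p = 0.0182 and 0.0349 by edgeR). These were the 2 of 8 called in each period, against 7.47% of all tested in CONT and 13.7% in REST, where the medians of the list were -0.09 in CONT and -0.18 in REST against -0.02 and -0.06 over all tested. DESeq2 called miR-19a and miR-19b in CONT, 2 of 8 against 8.25% of all tested, and miR-19a, miR-221 and miR-222 in REST, 3 of 8 against 22.2%. Without cow 1155, 0 miRNAs in all were called by edgeR between the breeds in CONT.

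The 5 miRNAs of the miR-200 family, whose loci have been linked to miR-22 through TET enzymes and which mark epithelium, also gave 0 calls by edgeR between the periods and in the interaction without a block. The share of all tested called there was 2.41% in HOLS and 0% in MONT and in the interaction. DESeq2 without a block called 2 of 5 in HOLS, miR-200b (-0.56, adjusted p = 0.0148) and miR-200c (-0.42, adjusted p = 0.0394), against 7.22% of all tested. It called 0 of the 5 family members in MONT and in the interaction, where 0% of all tested was called. Their median log2 fold change was -0.28 in HOLS and -0.51 in MONT, with 4 of 5 below 0 in HOLS and 5 of 5 in MONT. When the cow was blocked in HOLS, miR-200b (-0.55, adjusted p = 0.00119), miR-200c (-0.43, adjusted p = 0.0257) and miR-429 (-0.28, adjusted p = 0.0438) were lower in REST by edgeR's test, 3 of 5 against 16.3% of all tested. In REST, miR-141 was higher in HOLS than in MONT by 1.03 (SE 0.34, adjusted p = 0.0494 by edgeR), 1 of 5 called against 13.7% of all tested, and 0 of 5 were called in CONT against 7.47%. DESeq2 called 2 of 5 in REST, miR-141 and miR-200c, against 22.2% of all tested. The median difference between the breeds was 0.33 in CONT and 0.41 in REST for this family.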

How the data were processed

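Small RNA libraries of 22 MG biopsies (11 cows, 2 periods) were analysed. The authors built TruSeq libraries, demultiplexed with bcl2fastq 2.17.1.14, removed adapters, kept reads by size, annotated them with ncPRO-seq and identified miRNAs with miRDeep2, and deposited whole-number counts that are not normalized. The deposited normalized counts (DESeq2 1.18.1) and the authors' fold changes and p-values were not used. The labels list 12 cows, and the 2 libraries of a HOLS cow were not analysed here.

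Differences were fitted on the counts of all miRNAs with edgeR 4.0.16 (R 4.3.3; TMM, filterByExpr with a minimum count of 10, quasi-likelihood F test, Benjamini-Hochberg adjustment over all miRNAs tested, threshold 0.05). Each breed was fitted alone for the period, and all 22 libraries together for the interaction and the breeds. Normalized counts are counts divided by median-of-ratios size factors over all libraries, with a pseudocount of 1 on the log2 scale. Ratios of 2 rows used raw counts and two-sided exact permutation tests (scipy 1.17.1), unpaired unless called paired. Relations over 11 cows used 100000 permutations. Replicates within a group are different cows. Without a block, the fits treat the 2 libraries of a cow as independent, also in the fit of both breeds together. The edgeR fits without a block were checked on simulated independent libraries with planted changes, larger than those fitted for miR-22. The fits with a block and DESeq2 were not checked in this way.

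The cow number in the labels pairs the CONT and REST libraries. Deviations from the period means had an r across miRNAs, for the pair of libraries of each cow, of 0.25 to 0.54 in HOLS, and of 0.45, 0.76, 0.64, 0.07, 0.58 and, in cow 9615, -0.33 in MONT. The study's methods name no block, so the fits without it were kept as the main ones. The main tests between the periods therefore leave out the pairing, and the fits with a block are given beside them.

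The members, lists and rules were chosen with earlier results of these data known. The text names the 3 rows, the 5 miRNAs most like each arm, and from each list the members called and up to 4 with the lowest p. Alternatives were DESeq2 1.42.0, its size factors in edgeR, library totals only, no filter, no miR-3600 row, summed rows for the 3p arm, 1 added to both counts of a ratio, the cow as a block and each cow left out. The result of 1 further list is not reported here.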

Additional observations from a re-analysis of the deposited data

Results flagged for a closer look

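In HOLS CONT, the log2 ratio of miR-3600 to miR-22-3p was 0.000140753 in cow 1165 against 0.000227517 to 0.000255406 in the other 4 cows, which set it apart as a sample far from the others. It is an excess of 13 counts for miR-3600 in that library, against 17 to 32 in the others. This was 1 of 20 groups examined for the members and their ratios, and chance sets apart about 1 in 20.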

How the results depend on the processing

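None of the 3 rows passed the threshold in any of the 211 fits of a row under an alternative, and in 39 of these the log2 fold change had the opposite sign. These fits are not independent. Those of miR-3600 repeat those of miR-22-3p, and most have no block for the cow. The adjusted p of miR-22-3p in HOLS ran from 0.0615 with the replicate block to 0.731, and the block changed no call of a member. The difference of miR-22-3p between the breeds in CONT was 0.0411 without cow 2182, and its interaction was -0.0649 without cow 1155. For miR-22-5p, HOLS against MONT in CONT was -0.0251 with DESeq2, -0.0167 with its size factors, -0.0238 with totals only, -0.0334 without the miR-3600 row and from -0.0912 to 0.137 with each cow left out. In REST, miR-22-3p was 0.0109 without a filter, 0.000197 without the miR-3600 row and from -0.196 to 0.0783 with cows left out. miR-3600 was 0.0110 without a filter and ran over the same -0.196 to 0.0783, and miR-22-5p was 0.0136, 0.0101 and from -0.121 to 0.0963. The interaction of miR-22-5p was 0.0131 with DESeq2, 0.00103 with its size factors, 0.0435 without the miR-3600 row and from -0.107 to 0.138 with cows left out. In MONT between the periods, leaving out cows gave -0.120 to 0.000475 for miR-22-3p and -0.120 to 0.000414 for miR-3600.

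With cows left out, the log2 arm ratio differed by -0.106 to 0.0681 between the periods in HOLS, by -0.0371 to 0.222 between the breeds in CONT and by -0.180 to 0.123 in REST. The ratio of miR-3600 to miR-22-3p gave -0.000105 to -5.4e-05 in MONT, 2.99e-05 to 9.04e-05 between the breeds in REST and 6.94e-05 to 0.000122 for the interaction, each with an unadjusted exact permutation p under 0.05 without cow 9615. The test between the periods in MONT was unpaired. The arm ratio in MONT between the periods was 0.0403 without cow 2614.

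The number of miRNAs called in HOLS was 27 with DESeq2, 20 with totals only, 5 without a filter, 61 with the replicate block, and from 3 (without cow 1155 or 1165) to 14 (without cow 9195). It was 15 without the miR-3600 row, among them the 9 called with it. Removing this row changed the library that TMM takes as its reference, from REST of cow 1155 to CONT of cow 2182, and moved the TMM factors by -0.06 to 0.08 on the log2 scale. Whether these shifts brought the further calls was not tested. In MONT the count went from 0 to 46 without cow 9615. Between the breeds in CONT it was 3 with totals only, 3 without a filter and from 0 (without cow 1155) to 31 with cows left out. In REST it was 86 with DESeq2 and from 16 (without cow 1165 or 1652) to 101 (without cow 9615). The causes of these changes in number were not tested. Over all 390 values under alternatives, 314 were counted as unchanged. For a fold change or ratio this means the same direction and side of the threshold. For a number of miRNAs called it allows a shift such as 29 to 20, between the breeds in CONT without the miR-3600 row. Counts of miR-22-5p as low as 58 limit its ratio to a counting error of up to 13.1%.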
